A study of Mus musculus with 30 samples.

Results

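Neutrophils and the chemokines that call them were followed through 10 genes in MC38 tumours, a mouse colon carcinoma line grown under the skin. The genes were chosen by symbol from the table of gene counts, and all 10 were found among its 24552 genes. They are 7 genes used as neutrophil genes (S100a8, S100a9, Mmp8, Retnlg, Csf3r, Cd177 and Cxcr2) and 3 ligands of the receptor CXCR2 (Cxcl1, Cxcl2 and Cxcl5). All 10 passed the filter on low counts, which kept 15482 genes for testing. The gene numbers given in the table are 20201 for S100a8, 20202 for S100a9, 17394 for Mmp8, 245195 for Retnlg, 12986 for Csf3r, 68891 for Cd177, 12765 for Cxcr2, 14825 for Cxcl1, 20310 for Cxcl2 and 20311 for Cxcl5. Against the name of the set, Ly6g, the antigen by which mouse neutrophils are usually sorted, had 0 to 9 counts in a library and the neutrophil receptor Cxcr1 0 to 6, too few to be tested.

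Polyadenylated RNA was sequenced from whole tumours of female C57BL/6J mice aged 10 weeks, which carried MC38 cells injected into the right flank. At a tumour volume of 200 to 300 mm3 each mouse received 1 intravenous injection of vehicle, of mXTX301 at 0.39 mg/kg (a masked interleukin-12 surrogate for mice) or of a positive control without the mask at 0.03 mg/kg (called the unmasked control here), and tumours were taken 4 or 7 days later. Each of the 6 groups held 5 mice and 5 libraries, 30 in all. The doses of the drugs differed, and all groups shared strain, age, sex and tumour line, so the results describe 1 tumour line in 1 strain. Library totals are given with the processing. Levels are given as CPM, the count per 1e6 counts of the library scaled by TMM (trimmed mean of M-values) factors. Against the name colon carcinoma, 9 colon epithelium genes together summed to only 2.09 to 14.8 CPM in a library. Of these, 6 had enough counts to be tested, Krt8 and Krt18 were too low, and Cdx2 had 0 counts in all libraries. Differences were tested with edgeR's quasi-likelihood F test over all 15482 genes and were called at a Benjamini-Hochberg adjusted p under 0.05.

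Neutrophils leave the blood for inflamed tissue along gradients of ELR-motif CXC chemokines, which bind CXCR2 on their surface. Granulocyte colony-stimulating factor acts through the receptor encoded by Csf3r and drives neutrophil production and survival. In tumours, neutrophils have been described both as killers of tumour cells and as suppressors of T cells, and part of the genes read as neutrophil genes is also made by macrophages, monocytes or keratinocytes. In RNA from a whole tumour, fewer cells of a type and less RNA per cell cannot be told apart.

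The ligand genes lie together on chromosome 5. In the GENCODE M21 annotation of the GRCm38 (mm10) build, Cxcl5 (chr5:90759360-90761624), Cxcl3 (chr5:90786103-90789600), Cxcl1 (chr5:90891241-90893115) and Cxcl2 (chr5:90903871-90905938) are all on the plus strand. Cxcl1 and Cxcl2 are 10.8 kb apart with no protein-coding gene between them, and 142.2 kb separate Cxcl5 from Cxcl2, with Ppbp, Pf4, Cxcl3, Cxcl15 and Cxcl1 between them. Promoter sequences of Cxcl1, Cxcl2 and Cxcl3 are shown because these neighbours carry the same core letters of an NF-κB site. Their responses are given below one by one and were not tested against each other. The windows are RefSeq sequence on GRCm38.p6, plus strand, 5′ to 3′, and cover bases 130 to 31 before the RefSeq start. Capitals mark the motif GGAATTTCC, searched on both strands.
Cxcl1 (chr5:90891115-90891214): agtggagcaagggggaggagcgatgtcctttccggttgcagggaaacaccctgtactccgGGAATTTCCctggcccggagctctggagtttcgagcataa
Cxcl2 (chr5:90903769-90903868): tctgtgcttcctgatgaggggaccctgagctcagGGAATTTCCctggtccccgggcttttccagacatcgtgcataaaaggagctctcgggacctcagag
Cxcl3 (chr5:90785971-90786070): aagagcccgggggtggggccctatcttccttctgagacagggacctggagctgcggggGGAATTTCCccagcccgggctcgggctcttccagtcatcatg

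The first base of the motif lay 70 bases before the start in Cxcl1, 96 in Cxcl2 and 72 in Cxcl3. Of 32851 promoter windows of the same 250 bases before a start, 94 (0.286%) held GGAATTTCC on either strand. It was not found in the windows of S100a8, S100a9, Mmp8, Retnlg, Csf3r, Cd177 or Cxcr2. Of the 10 genes, 9 had a promoter entry and Cxcl5 had none. Another motif, the letters TTCNNNGAA (N is any base) of a GAS (gamma-activated sequence) site, was searched in the same windows. It had 0 matches in those 9 genes and in Cxcl3, where 2306 (7.02%) of all windows held it. A match or a missing match in 250 bases is a description of the sequence and not a test of binding.

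At day 4 after mXTX301, 2 of the 10 genes rose and 1 fell. Over all genes tested, 16.2% rose and 16% fell in this comparison. Mmp8 rose 4.35-fold and Csf3r 2.92-fold, and Cd177 fell, while the 3 ligands did not pass the test. For 2 of the 10 genes every treated tumour was above every vehicle tumour, against 9.29% of all genes. The median log2 fold change of the 10 genes was 1.08, beside 0.01 over all genes.

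By day 7 after mXTX301, 4 of the 10 genes had risen against vehicle of the same day and 0 had fallen, where 25.7% of all genes rose and 22.7% fell. Those 4 were Mmp8 (13.6-fold), Csf3r (6.63-fold), Cxcl5 (6.02-fold) and Cxcl2 (1.89-fold). Groups did not overlap for 2 of the 10 genes, Mmp8 and Csf3r, against 16.5% of all genes. The median log2 fold change was 0.93 for the 10 genes and 0.02 for all genes. The count of 4 became 7 without the fifth vehicle tumour of day 7, which is described with the S100 genes. In either direction, 7698 of all genes were then called, against 7493 with all tumours. Leaving out each library in turn gave counts of 3 to 7.

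The unmasked control raised 4 of the 10 genes at day 4 and lowered 1, with 11.6% of all genes higher and 10.8% lower. The 4 were Retnlg (9.03-fold), Mmp8 (6.41-fold), S100a9 (5.1-fold) and S100a8 (4.57-fold), and the gene that fell was Cd177. The same 4 genes had all 5 treated tumours above all 5 vehicle tumours, against 7.3% of all genes. At day 7, 7 of the 10 genes had risen and 1 had fallen, where 23.2% of all genes rose and 21.8% fell. These 7 were Mmp8 (19.2-fold), Retnlg (9.28-fold), Csf3r (8.06-fold), Cxcl5 (7.8-fold), S100a9 (4.99-fold), S100a8 (4.43-fold) and Cxcl2 (2.5-fold). Groups did not overlap for 3 of the 10 genes, against 12.5% of all genes. The 2 comparisons of a day share their vehicle tumours, so the drugs are given side by side and not as independent evidence.

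**Figure D1:**
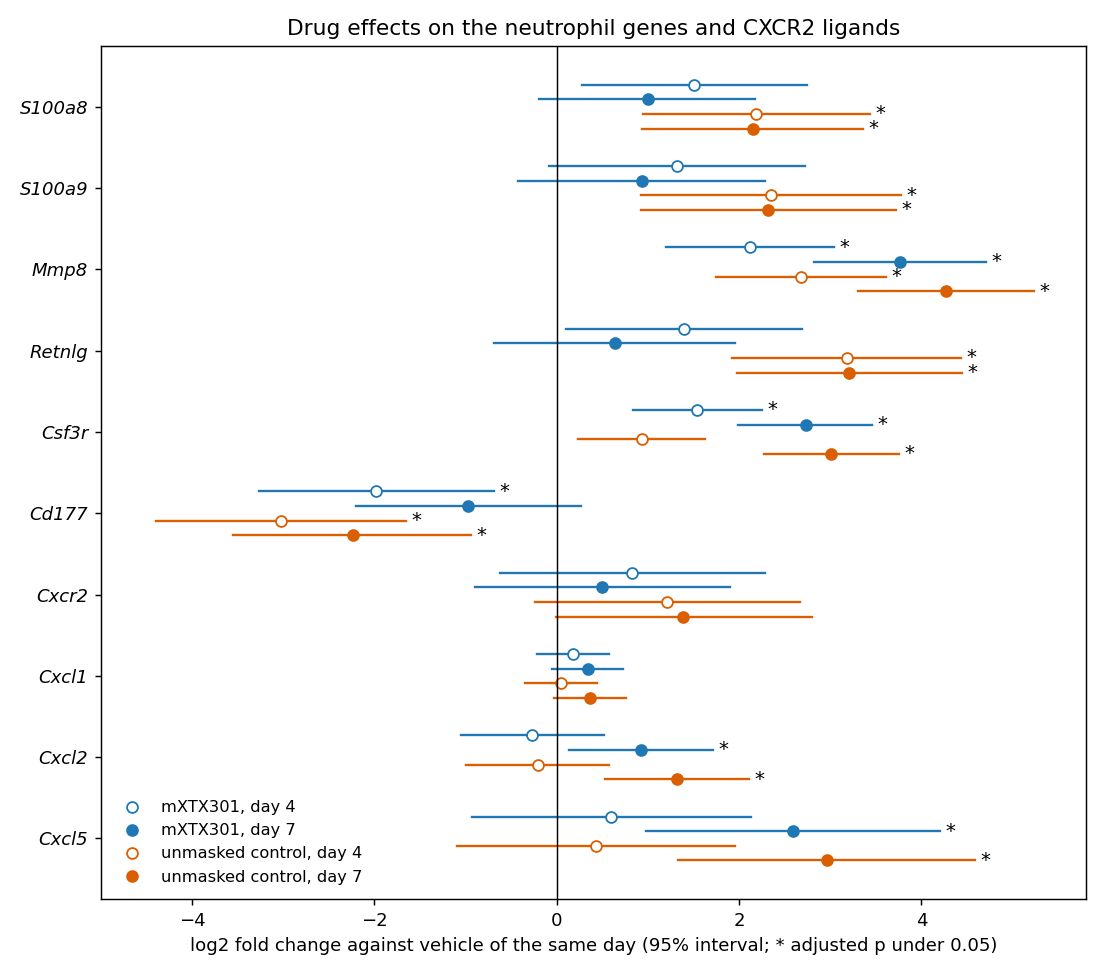
Log2 fold change against vehicle of the same day for each of the 10 genes, with its 95% interval, from edgeR's quasi-likelihood fit to 30 libraries; open circles are day 4, filled circles day 7, and an asterisk marks an adjusted p under 0.05. Mmp8 is called in all 4 comparisons, Cd177 lies on the lower side in all 4, and all 4 intervals of Cxcl1 include 0.

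**Figure D2:**
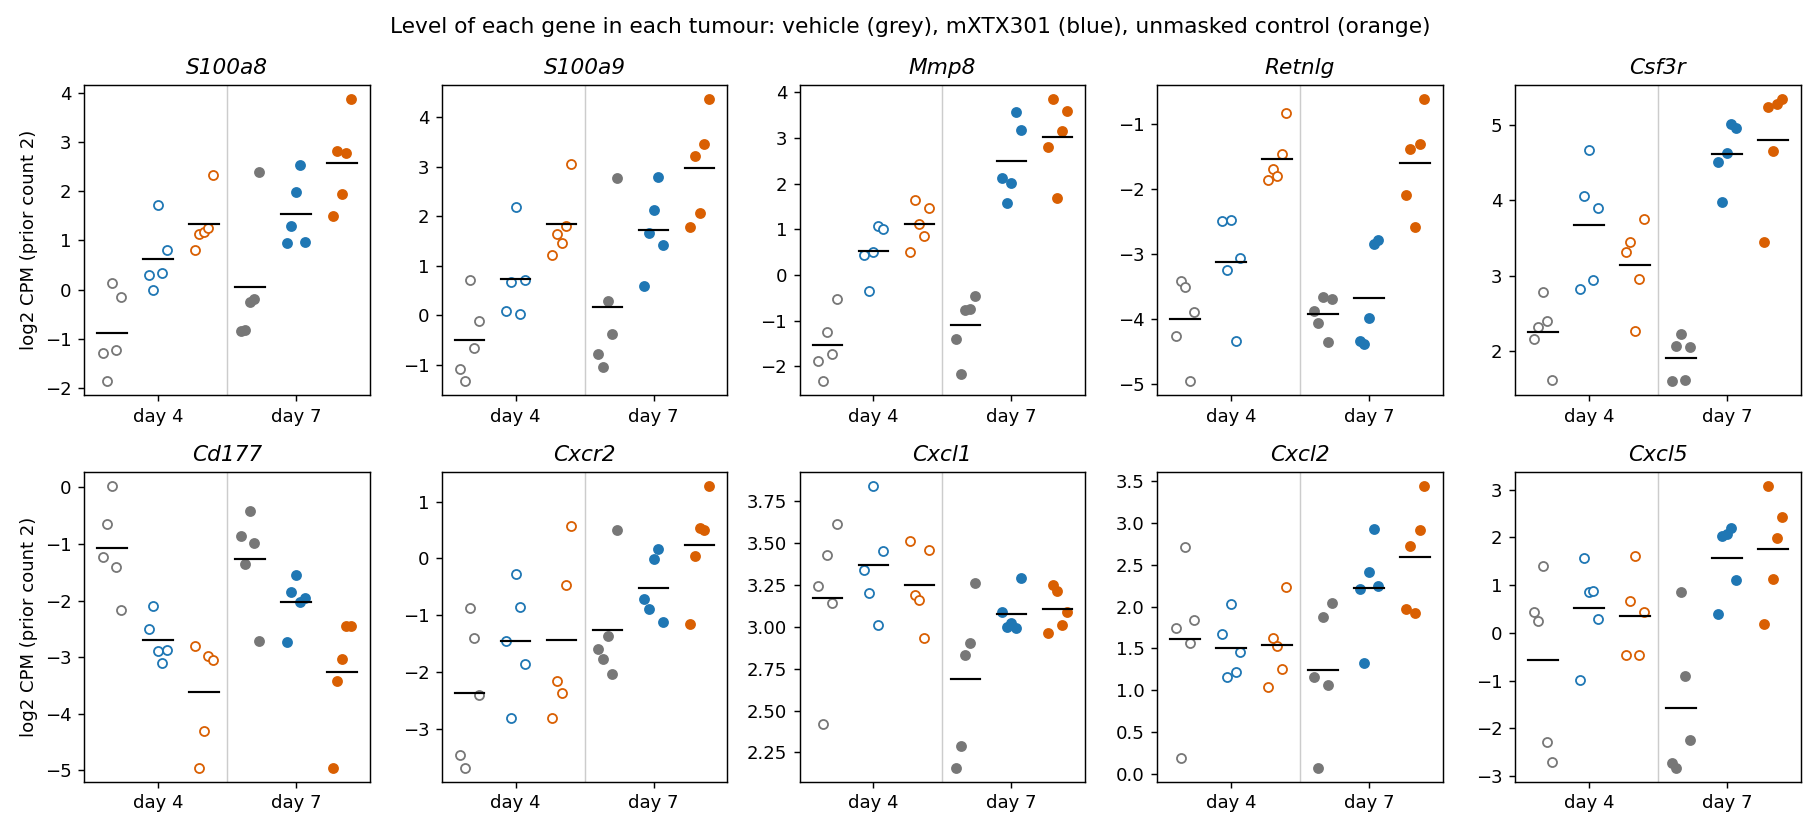
Log2 CPM (prior count 2) of each gene in each of the 30 tumours, by treatment (grey vehicle, blue mXTX301, orange unmasked control) and day (open day 4, filled day 7); the bar is the group mean. In the vehicle tumours of day 7, 1 tumour stands above the other 4 for S100a8, S100a9 and Cxcr2.

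Among the ligands, Cxcl1 (KC, a strong neutrophil attractant) passed in none of the 4 comparisons. Its CPM ran from 5.3 to 12.1 in vehicle tumours at day 4, from 8.03 to 14.3 after mXTX301 and from 7.59 to 11.4 after the unmasked control. At day 7 the ranges were 4.43 to 9.54, 7.91 to 9.73 and 7.75 to 9.51 in the same order. The groups overlapped on both days. The log2 fold changes at day 7 were 0.34 (95% interval -0.05 to 0.73, adjusted p 0.146) for mXTX301 and 0.37 (-0.03 to 0.76, adjusted p 0.121) for the unmasked control. Without the fifth vehicle tumour of day 7, which had the highest Cxcl1 of its group, they were 0.49 (adjusted p 0.0395; 0.0395 to 0.4 over the alternatives) and 0.51 (adjusted p 0.0319; 0.0319 to 0.374).

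Cxcl2 (MIP-2, a ligand made quickly by activated macrophages) rose at day 7 with both drugs. At day 7 its CPM was 2.2, 1.03, 3.62, 2.06 and 4.08 in the vehicle tumours. It was 4.6, 2.48, 5.3, 7.57 and 4.68 after mXTX301, and 3.87, 6.56, 3.75, 7.5 and 10.8 after the unmasked control. Most treated tumours were above most vehicle tumours, and the groups overlapped. The log2 fold change was 1.32 ± 0.39 (SE, n = 5 per group, adjusted p 0.00666) for the unmasked control. For mXTX301 it was 0.92 ± 0.38 (SE, n = 5 per group, adjusted p 0.0484), a call that was lost in 13 of 21 alternatives, with adjusted p from 0.0175 to 0.157. At day 4 the log2 fold changes were -0.27 and -0.21, with 95% intervals of -1.05 to 0.52 and -1.0 to 0.57.

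Cxcl5 (LIX, a ligand made by epithelial and stromal cells more than by leukocytes) had the widest spread of the ligands. Its CPM in the day 7 vehicle tumours was 0.119, 0.109, 1.79, 0.503 and 0.18. It was 1.29, 4.06, 4.15, 4.56 and 2.11 after mXTX301 and 1.1, 8.45, 2.14, 3.94 and 5.34 after the unmasked control. The third vehicle tumour lay inside the treated ranges, and the other 4 lay below every treated tumour. The log2 fold change at day 7 was 2.59 ± 0.78 (SE, adjusted p 0.00823) for mXTX301 and 2.96 ± 0.79 (SE, adjusted p 0.00363) for the unmasked control. Without it these were 3.81 and 4.18. At day 4, the vehicle tumours ran from 0.122 to 2.63 CPM and the log2 fold changes were 0.60 (95% interval -0.93 to 2.13) and 0.43 (-1.09 to 1.96).

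Of 3 further CXCR2 ligands, Cxcl15 had at most 4 counts in a library and was not tested. Cxcl3, which lies between Cxcl5 and Cxcl1, had a median CPM of 1.04 in vehicle tumours, 1.76 after mXTX301 and 3.87 after the unmasked control at day 4. At day 7 the medians were 0.915, 2.28 and 7.42. Cxcl3 rose at day 7 with mXTX301 (log2 fold change 2.09, adjusted p 0.00209) and on both days with the unmasked control (2.05, adjusted p 0.00652, and 2.98, adjusted p 9.02e-05). Its day 4 change after mXTX301 was 0.74 (adjusted p 0.293). Ppbp, the platelet basic protein, passed in none of the 4 comparisons (log2 fold changes -1.22 to -0.10).

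Cxcr2 (chr1:74153989-74161246), the receptor for these ligands, did not pass in any comparison with vehicle. At day 4 its CPM was 0.0593, 0.0457, 0.514, 0.348 and 0.157 in vehicle tumours. It was 0.33, 0.11, 0.79, 0.523 and 0.244 after mXTX301 and 0.112, 0.191, 0.162, 0.694 and 1.46 after the unmasked control. All groups overlapped at these low levels. At day 7 it was 0.298, 0.26, 0.358, 0.211 and 1.39 in vehicle tumours. It was 0.577, 0.506, 0.961, 1.09 and 0.43 after mXTX301 and 0.417, 1, 1.42, 1.4 and 2.39 after the unmasked control. All 10 treated tumours of day 7 lay above 4 of the 5 vehicle tumours, and the fifth vehicle tumour was above all 5 mXTX301 tumours and 2 of the unmasked group. The log2 fold change of the unmasked control at day 7 was 1.39 (95% interval -0.01 to 2.80, adjusted p 0.0989), and 2.21 without that vehicle tumour (adjusted p 0.013; 0.013 to 0.243 over the alternatives). With the replicate number as a block the adjusted p was 0.0409. For mXTX301 the change was 0.50 (-0.90 to 1.90).

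Csf3r (chr4:126024550-126044440), the receptor for granulocyte colony-stimulating factor, was the gene of the set with the second largest rise at day 7 after mXTX301. Its CPM at day 4 was 4.47, 4.95, 6.88, 5.23 and 3.03 in vehicle tumours. It was 7.07, 16.7, 25.3, 7.66 and 14.9 after mXTX301 and 9.89, 10.9, 4.79, 7.73 and 13.4 after the unmasked control. Every mXTX301 tumour was above every vehicle tumour, and 1 tumour of the unmasked group lay inside the vehicle range. At day 7 it was 3.01, 4.17, 4.65, 3.04 and 4.14 in vehicle tumours. It was 22.7, 15.7, 24.6, 32.1 and 31 after mXTX301 and 10.9, 37.9, 25, 38.9 and 40.5 after the unmasked control. The lowest treated tumour of day 7, at 10.9, was well above the highest vehicle tumour, at 4.65.

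The log2 fold changes of Csf3r were 1.54 ± 0.34 (SE, adjusted p 0.00144) at day 4 and 2.73 ± 0.36 (SE, adjusted p 1.35e-06) at day 7 for mXTX301. For the unmasked control they were 0.93 ± 0.34 (SE, adjusted p 0.0501) and 3.01 ± 0.36 (SE, adjusted p 4.94e-07). The effect of the unmasked control was larger at day 7 than at day 4 by 2.08 (95% interval 1.09 to 3.07, adjusted p 0.0224 for the interaction). It was the only one of the 10 genes with a called interaction for that drug, where 5.15% of all genes were called. That call was lost without the fourth vehicle tumour (2.00, adjusted p 0.0507) or the second unmasked tumour (1.98, adjusted p 0.0515) of day 7. It was also lost without the 8 (2.17, adjusted p 0.0582) or 12 (2.20, adjusted p 0.293) libraries of highest keratinocyte level, described below. Over 31 alternatives the adjusted p ran from 0.00133 to 0.293. The day 4 effect itself passed in 7 of 21 alternatives (adjusted p 0.021 to 0.238), among them those without the third vehicle tumour (1.08, adjusted p 0.0397) or the third unmasked tumour (1.10, adjusted p 0.0231). Csf3, which encodes the ligand of this receptor and was singled out after its values were seen, had medians between 0.256 and 0.36 CPM in the 6 groups and passed in none of the 4 comparisons.

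Mmp8 (chr9:7558456-7568485), neutrophil collagenase, rose with both drugs on both days. Its CPM at day 4 was 0.237, 0.168, 0.386, 0.269 and 0.662 in vehicle tumours. It was 1.32, 0.754, 1.38, 2.06 and 1.99 after mXTX301 and 1.38, 3.07, 2.12, 1.77 and 2.71 after the unmasked control. With both drugs the lowest treated tumour was above the highest vehicle tumour. At day 7 it was 0.345, 0.192, 0.56, 0.568 and 0.69 in vehicle tumours. It was 4.32, 2.96, 4.01, 11.8 and 9.03 after mXTX301 and 6.86, 14.4, 3.16, 8.83 and 12 after the unmasked control. Treated tumours of day 7 were again all above the vehicle tumours, and by a wider margin.

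The log2 fold changes of Mmp8 were 2.12 ± 0.45 (SE, adjusted p 0.000852) and 3.77 ± 0.46 (SE, adjusted p 4.31e-07) at days 4 and 7 for mXTX301. They were 2.68 ± 0.45 (SE, adjusted p 0.000127) and 4.27 ± 0.47 (SE, adjusted p 1.33e-07) for the unmasked control. All 4 calls held in each of the 21 alternatives run.

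S100a8 and S100a9 (chr3:90668978-90670035 on the plus strand and chr3:90692632-90695721 on the minus strand) encode the 2 chains of calprotectin, the main cytosolic protein of neutrophils, and lie 22.6 kb apart with no protein-coding gene between them. They also mark monocytes and stressed keratinocytes. S100a8 CPM at day 4 was 0.376, 0.244, 1.06, 0.395 and 0.871 in vehicle tumours. It was 1.2, 0.957, 3.26, 1.23 and 1.73 after mXTX301 and 1.71, 2.15, 2.23, 2.35 and 5.03 after the unmasked control. The unmasked group lay wholly above vehicle, and the mXTX301 group overlapped it with 1 tumour. At day 7 S100a8 was 0.524, 0.534, 0.809, 0.844 and 5.25 in vehicle tumours. It was 1.9, 2.44, 3.92, 5.73 and 1.91 after mXTX301 and 2.81, 7.05, 3.84, 6.85 and 14.7 after the unmasked control. All 10 treated tumours were above 4 of the vehicle tumours, and the fifth vehicle tumour lay within the treated ranges.

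S100a9 followed the same order. Its CPM at day 4 was 0.435, 0.366, 1.6, 0.601 and 0.888 in vehicle tumours, 1.03, 1.56, 4.49, 0.979 and 1.6 after mXTX301 and 2.29, 3.07, 2.72, 3.46 and 8.31 after the unmasked control. At day 7 it was 0.548, 0.452, 1.18, 0.73 and 6.82 in vehicle tumours, 1.48, 3.16, 4.35, 6.95 and 2.62 after mXTX301 and 3.41, 9.31, 4.17, 11 and 20.6 after the unmasked control. The fifth vehicle tumour of day 7 again stood far above the other 4. The ratio of S100a9 to S100a8 counts stayed between 0.777 and 1.65 in the 30 libraries, with a median of 1.3. Across the libraries the log2 CPM of the pair had a Pearson r of 0.98, and 0.96 after the mean of each group was subtracted, a description over libraries that share their tumour and depth.

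With the unmasked control S100a8 rose at day 4 (log2 fold change 2.19 ± 0.61, SE, adjusted p 0.0103) and day 7 (2.15 ± 0.59, SE, adjusted p 0.00451). S100a9 rose likewise at day 4 (2.35 ± 0.70, SE, adjusted p 0.016) and day 7 (2.32 ± 0.68, SE, adjusted p 0.00728). The day 4 call of S100a9 was lost without the fifth unmasked tumour (1.88, adjusted p 0.059; 0.00319 to 0.059 over the alternatives). With mXTX301 neither gene passed: S100a8 had 1.51 (95% interval 0.28 to 2.74, adjusted p 0.0549) at day 4 and 1.00 (-0.19 to 2.18, adjusted p 0.157) at day 7. S100a9 had 1.32 (-0.08 to 2.72, adjusted p 0.144) and 0.93 (-0.42 to 2.28, adjusted p 0.253).

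Those day 7 values rested on the fifth vehicle tumour. Without it the mXTX301 effect was 2.21 for S100a8 (adjusted p 0.000905; 0.000556 to 0.38 over the alternatives) and 2.33 for S100a9 (adjusted p 0.00253; 0.000489 to 0.524). The unmasked control effect moved to 3.36 and 3.72. With the replicate number as a block, S100a8 passed for mXTX301 at day 4 (1.60, adjusted p 0.0112) and day 7 (1.50, adjusted p 0.0105), and S100a9 at day 7 (1.47, adjusted p 0.0302). S100a8 at day 4 also passed by DESeq2 (1.50, adjusted p 0.0245) and without the third vehicle tumour (1.83, adjusted p 0.0364), with adjusted p of 0.0112 to 0.191 over the alternatives.

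Retnlg (chr16:48872621-48874496), a resistin-like protein of mature neutrophils, was counted in few reads. The 5 vehicle libraries held 1, 4, 3, 0 and 2 counts at day 4 and 3, 2, 3, 1 and 3 at day 7. After the unmasked control they held 13, 23, 14, 21 and 30 counts at day 4 and 12, 23, 9, 22 and 41 at day 7. Every library of the unmasked control held more counts than every vehicle library. After mXTX301 they held 7, 4, 10, 1 and 5 at day 4 and 1, 1, 2, 5 and 6 at day 7, which overlapped vehicle. The log2 fold change was 3.18 ± 0.61 (SE, adjusted p 0.00051) and 3.21 ± 0.60 (SE, adjusted p 0.000109) at days 4 and 7 for the unmasked control. For mXTX301 it was 1.40 (95% interval 0.10 to 2.69, adjusted p 0.0917) and 0.64 (-0.69 to 1.96, adjusted p 0.432). The day 4 value passed without the fourth mXTX301 tumour (1.66, adjusted p 0.047; 0.047 to 0.384 over the alternatives).

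Cd177 (chr7:24743983-24760311), a surface glycoprotein of neutrophils, was the only one of the 10 genes that fell. Its CPM was 0.395, 0.61, 0.991, 0.348 and 0.192 in vehicle tumours at day 4. It was 0.144, 0.202, 0.102, 0.0844 and 0.105 after mXTX301 and 0.112, 0, 0.018, 0.0947 and 0.088 after the unmasked control. Vehicle and unmasked tumours did not overlap at day 4, and vehicle and mXTX301 tumours overlapped by 1 tumour each. At day 7 it was 0.524, 0.356, 0.715, 0.471 and 0.12 in vehicle tumours. It was 0.119, 0.245, 0.31, 0.213 and 0.224 after mXTX301 and 0, 0.0609, 0.0899, 0.151 and 0.15 after the unmasked control. The fifth vehicle tumour lay within the treated ranges and the other 4 above them.

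The log2 fold change of Cd177 was -1.98 ± 0.63 (SE, adjusted p 0.0171) for mXTX301 at day 4 and -0.97 (95% interval -2.20 to 0.27, adjusted p 0.189) at day 7. For the unmasked control it was -3.02 ± 0.67 (SE, adjusted p 0.00187) and -2.24 ± 0.64 (SE, adjusted p 0.00554). The mXTX301 call at day 4 was lost without the third vehicle tumour (-1.59, adjusted p 0.0639; 0.00371 to 0.0639 over the alternatives). Cd177 thus moved against Mmp8, S100a8 and S100a9, with a Pearson r over 30 libraries of -0.58, -0.53 and -0.49. After the group means were subtracted these were -0.24, -0.04 and 0.07. With Retnlg, Csf3r, Cxcr2, Cxcl1, Cxcl2 and Cxcl5 the r of Cd177 was -0.58, -0.32, -0.19, -0.34, -0.15 and -0.19. Within groups, after the same subtraction, it was 0.30, 0.43, 0.14, -0.17, 0.09 and 0.42.

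Levels of different genes were compared per kilobase of exon, counting each base that lies in an exon of any annotated transcript. For Cxcl1 (1875 bases) and Cxcl2 (2068 bases) this length covered the whole gene, introns included. Their values per kb are therefore low beside genes whose introns were left out. The places of Cxcl1 and Cxcl2 in the orders below depend on this length. In the vehicle tumours of day 7 Cxcl1 had the highest median, 3.78 CPM per kb (2.36 to 5.09). Next came S100a9 at 1.4 (0.866 to 13.1), S100a8 at 1.17 (0.755 to 7.56), Csf3r at 1.15 (0.834 to 1.29) and Cxcl2 at 1.06 (0.498 to 1.97), whose ranges overlapped each other. Mmp8 at 0.231, Cd177 at 0.166, Cxcr2 at 0.0978, Cxcl5 at 0.0966 and Retnlg at 0.0602 followed. After the unmasked control at day 7 the order began with S100a9 at 17.8 (6.53 to 39.5), Csf3r at 10.5 (3.02 to 11.2) and S100a8 at 9.87 (4.05 to 21.2), which overlapped each other. Cxcl1 at 4.51 (4.13 to 5.07), Mmp8 at 3.64 (1.3 to 5.94), Cxcl2 at 3.17 (1.81 to 5.22) and Cxcl5 at 2.11 (0.59 to 4.54) overlapped as well. Cd177 was last at 0.0317 CPM per kb.

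Direct tests of mXTX301 against the unmasked control called 0 of the 10 genes at either day. Over all genes edgeR called 0 of 15482 (0%) at day 4 and at day 7, with 2092 and 898 genes at an unadjusted p under 0.05, of which 1 and 2 were among the 10. DESeq2 called 8 and 14 genes. Among the 10 genes Retnlg had the smallest p, with a log2 difference of mXTX301 minus unmasked control of -1.78 (95% interval -2.91 to -0.64, p 0.00338, adjusted p 0.255) at day 4. At day 7 it was -2.58 (-3.78 to -1.38, p 0.000146, adjusted p 0.257), and this value passed by DESeq2 (adjusted p 0.0343; 0.0343 to 0.999 over the alternatives). At day 7 the differences were -1.15 for S100a8 (-2.33 to 0.03), -1.39 for S100a9 (-2.74 to -0.03), -0.50 for Mmp8 (-1.33 to 0.33) and -0.28 for Csf3r (-0.96 to 0.40). For the ligands they were -0.03 for Cxcl1 (-0.42 to 0.37), -0.40 for Cxcl2 (-1.18 to 0.37) and -0.37 for Cxcl5 (-1.87 to 1.12). These intervals leave room for differences in either direction for most genes, and the doses compared were not the same.

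Between day 4 and day 7 the vehicle tumours showed 0 called genes among the 10, where 6 of 15482 genes (0.0388%) were called. In that comparison 2932 of all genes had an unadjusted p under 0.05, and so had 2 of the 10, S100a8 (log2 difference 1.43, adjusted p 0.196) and Cxcl1 (-0.48, adjusted p 0.178). DESeq2 called 0 of the 10 and 524 of all genes. After mXTX301 Mmp8 was higher at day 7 than at day 4 (2.10, 95% interval 1.22 to 2.97, adjusted p 0.00515), 1 of 10 genes against 7.88% of all genes. After the unmasked control 3 of the 10 genes were higher at day 7, against 14.4% of all genes. They were Mmp8 (2.03, 1.17 to 2.90, adjusted p 0.00236), Csf3r (1.71, 1.01 to 2.41, adjusted p 0.00206) and Cxcl2 (1.12, 0.33 to 1.91, adjusted p 0.0331). The Cxcl2 call was lost in 9 of 21 alternatives (log2 differences 0.83 to 1.31, adjusted p 0.0159 to 0.373). The count of 3 was 5 with the replicate number as a block. It was also 5 without the fifth unmasked tumour of day 4. Without the 12 libraries of highest keratinocyte level it was 0, and 0 of all genes were called. Mmp8 was then 1.82 and Csf3r 1.52 (adjusted p 0.319 each). Those 12 held 2 of the 5 unmasked tumours of day 4 and 3 of the 5 of day 7. The change of the mXTX301 effect between days was called for 0 of the 10 genes and for 4.99% of all genes. Of the 10 genes 3 had an unadjusted p under 0.05, as had 3854 of 15482 genes, and DESeq2 called 0 of them. The largest of the 3, Mmp8, had 1.65 (0.39 to 2.91, adjusted p 0.104).

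Other neutrophil genes were read from lists that were chosen with earlier results of these data known. Of 14 granule and immature neutrophil genes 7 were tested, and Elane, Mpo, Camp, Ltf, Olfm4, Ms4a3 and Fcnb had too few counts. After mXTX301 3 of the 7 rose at day 4 and 4 at day 7, and after the unmasked control 5 and 4, with 0 lower in each comparison. Over all genes 16.2% and 25.7% rose with mXTX301 at days 4 and 7 and 11.6% and 23.2% with the unmasked control, as background. Lcn2, the siderophore-binding protein of specific granules, rose in all 4 comparisons (log2 fold changes 1.00, 1.73, 1.34 and 1.55 for mXTX301 at days 4 and 7 and the unmasked control at days 4 and 7). Ngp, the neutrophilic granule protein, held 4 counts over the 5 vehicle libraries of day 7, 358 after mXTX301 and 249 after the unmasked control. Prtn3, proteinase 3, rose at day 7 (1.37, adjusted p 0.000267, and 1.17, adjusted p 0.00137), and its day 4 values of 0.17 and 0.31 did not pass.

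Of 20 mature and activated neutrophil genes 17 were tested. After mXTX301 10 rose and 1 fell at day 4, and 13 rose and 0 fell at day 7. After the unmasked control 9 and 12 rose and 0 fell. Over all genes 16.2% rose and 16% fell with mXTX301 at day 4 and 25.7% and 22.7% at day 7, and with the unmasked control 11.6% and 23.2% rose. The gene that fell was Hdc, histidine decarboxylase (-0.62, adjusted p 0.0228). The median log2 fold changes were 0.91, 1.70, 0.73 and 1.11 in that order. Acod1, which makes itaconate in activated myeloid cells, had a median CPM of 9.37 in vehicle tumours of day 7, 80.4 after mXTX301 and 84.6 after the unmasked control. Fpr2, a formyl peptide receptor, went from 1.79 to 22.9 and 25.3, and Clec4d, a C-type lectin receptor of myeloid cells, from 3.52 to 54.2 and 78.2. Acod1, Fpr2 and Clec4d are made by macrophages and monocytes too. The 3 that were not tested were Ly6g, Cxcr1 and Mrgpra2b. Mmp9 and Padi4, singled out after their values were seen, passed in none of the 4 comparisons.

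Of 14 cytokines, receptors and regulators that lie upstream of the CXCR2 ligands 13 were tested, and Il17a had 0 counts in all libraries. After mXTX301 6 rose at day 4 and 10 at day 7, with 0 lower. After the unmasked control 4 rose and 1 fell at day 4, and 10 rose at day 7. The shares of all genes that rose were again 16.2%, 25.7%, 11.6% and 23.2% in that order. Il1a, an alarmin that induces these chemokines, rose in all 4 comparisons (log2 fold changes 1.93, 3.80, 2.32 and 3.96). Tnf rose in all 4 as well (1.11, 1.84, 0.93 and 2.03). Il1b passed at day 7 alone, with 2.51 after mXTX301 and 1.85 after the unmasked control, and its effect at day 7 exceeded that at day 4 for each drug (2.29, adjusted p 0.0156, and 2.33, adjusted p 0.0177). The gene that fell at day 4 was Il6 (-1.50, adjusted p 0.0321).

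Markers of skin moved with some of these genes. The keratinocyte list (15 of 16 genes in the table) had a summed CPM of 11.2 to 159 and 12.1 to 1485 in vehicle tumours at days 4 and 7, 14.9 to 428 and 16.9 to 1061 after mXTX301, and 14 to 674 and 13.1 to 1154 after the unmasked control. No list gene was called at day 4, and 1 of 15, Krt16, was called lower after mXTX301 at day 7 (-2.88, and 0.17 without the fifth vehicle tumour). The fifth vehicle tumour of day 7 had the highest mean log2 CPM of the list, 5.67. A fit with this level as a covariate gave Cxcr2 a log2 change of 0.21 per unit (adjusted p 0.00836), the only one of the 10 genes called, where 2.99% of all genes were called. S100a8 had 0.15 (adjusted p 0.0828) and S100a9 0.17 (adjusted p 0.0918). With the covariate the day 7 effects of mXTX301 were 1.50 for S100a8 (adjusted p 0.0177) and 1.62 for S100a9 (adjusted p 0.0287), and Cxcr2 passed for the unmasked control (1.46, adjusted p 0.0256). Without the 8 libraries of highest keratinocyte level, a choice made after seeing the data, mXTX301 raised 2 and 5 of the 10 genes at days 4 and 7 and the unmasked control 4 and 7. Over all genes, in either direction, those 4 comparisons then called 3961, 6685, 2759 and 5800 genes, against 4982, 7493, 3465 and 6973 with all libraries. Without 12 such libraries the counts were 2, 5, 4 and 5, and over all genes 3530, 5285, 1618 and 2415. Those 12 held 3 of the 5 vehicle tumours and 3 of the 5 unmasked tumours of day 7. Of day 4 they held 1 vehicle, 1 mXTX301 and 2 unmasked tumours. The day 7 calls of the unmasked control that were lost without those 12 were Cxcl2 (1.40, adjusted p 0.108), Cxcl5 (3.02, adjusted p 0.0792) and Cd177 (-2.70, adjusted p 0.0975). With all libraries these changes were 1.32, 2.96 and -2.24. At day 4 of mXTX301 the call of Cd177 was lost (-2.02, adjusted p 0.0576, against -1.98). Fewer tumours and less skin cannot be told apart in these lost calls.

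**Figure D3:**
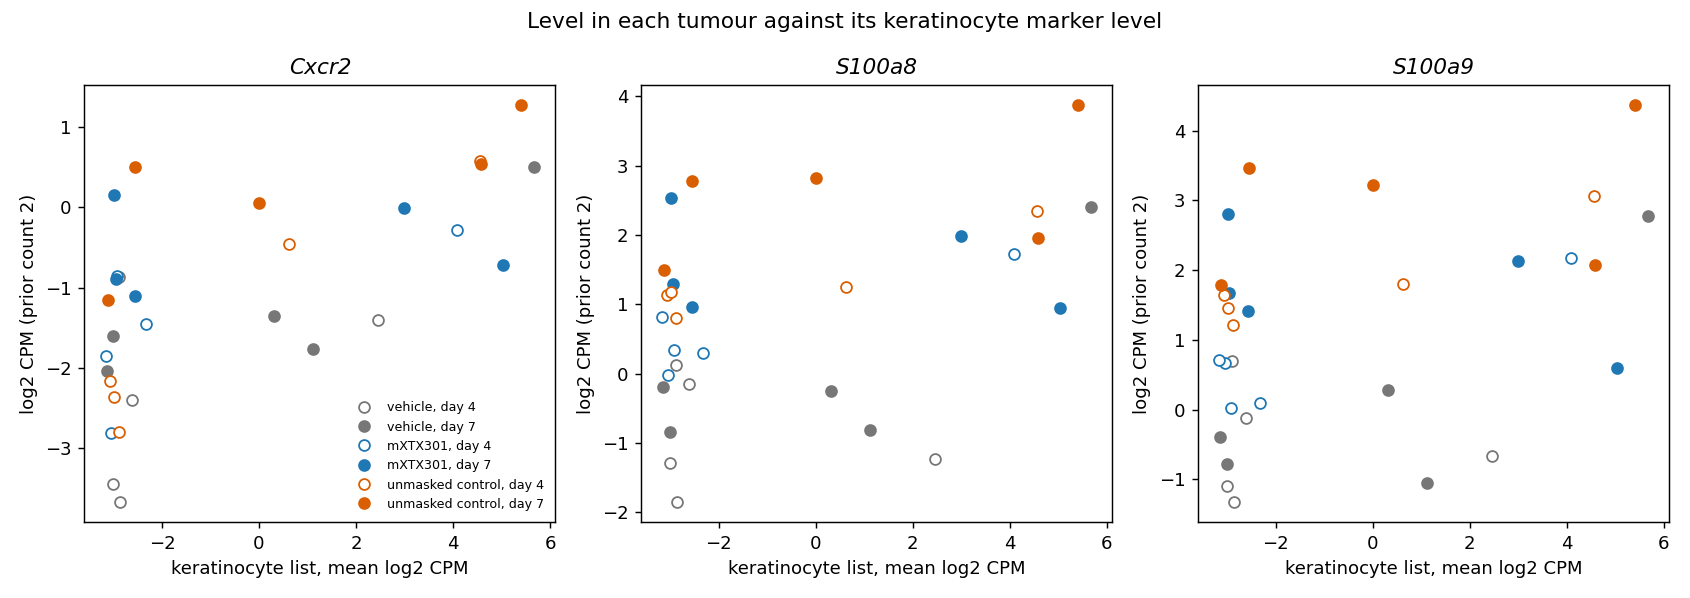
Log2 CPM (prior count 2) of Cxcr2, S100a8 and S100a9 in each tumour against the mean log2 CPM of the keratinocyte list. The tumours at the right, 8 of them above a level of 2, come from all 6 groups, and the vehicle tumour at 5.67 is the highest vehicle tumour of day 7 for all 3 genes.

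Markers of macrophages, monocytes and fibroblasts moved with Csf3r, Mmp8 and Cxcl5. Markers of mast cells rose at day 7 too, and their correlation with these genes was not computed. Beside the counts that follow, 25.7% and 23.2% of all genes rose at day 7 with mXTX301 and the unmasked control. At day 4 these shares were 16.2% and 11.6%. All 10 macrophage genes rose after mXTX301 at day 7 and 9 of 10 after the unmasked control, with 6 and 1 at day 4. Their summed CPM was 379 to 996 in vehicle tumours of day 7, 1405 to 2555 after mXTX301 and 903 to 2607 after the unmasked control. Of 8 monocyte genes 8 and 6 rose at day 7, and 5 and 3 at day 4, and their summed CPM at day 7 was 128 to 269, 360 to 746 and 215 to 565. Over the 30 libraries Csf3r followed the macrophage list with a Pearson r of 0.93, and 0.78 after group means were subtracted. For Mmp8 these were 0.82 and 0.25, and for Cxcl5 with the monocyte list 0.84 and 0.72. Of 8 fibroblast genes 5 and 2 rose at day 7 and 1 and 1 at day 4, and their summed CPM at day 7 was 1578 to 3833 in vehicle tumours, 3051 to 8592 after mXTX301 and 2132 to 4674 after the unmasked control. With the fibroblast list Cxcl5 had an r of 0.73 (0.61 after centring), Mmp8 0.66 (0.53) and Csf3r 0.72 (0.45). Csf3r had 0.89 (0.67) with the monocyte list and 0.44 (0.64) with a list of 8 endothelium genes, of which 2 and 0 rose at day 7. Of 6 mast cell genes 5 were tested, and 5 rose at day 7 with each drug and 1 at day 4. Their summed CPM at day 7 was 4.21 to 12.2, 20 to 27.8 and 13.7 to 37.2, and Ms4a2 was too low to be tested. The lowest level of any macrophage or monocyte marker in a library was 1.78 CPM, of F10. The part of these cell types in the rises of these genes was not tested. Of 7 eosinophil genes 1 was tested, with a summed CPM of at most 0.931.

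**Figure D4:**
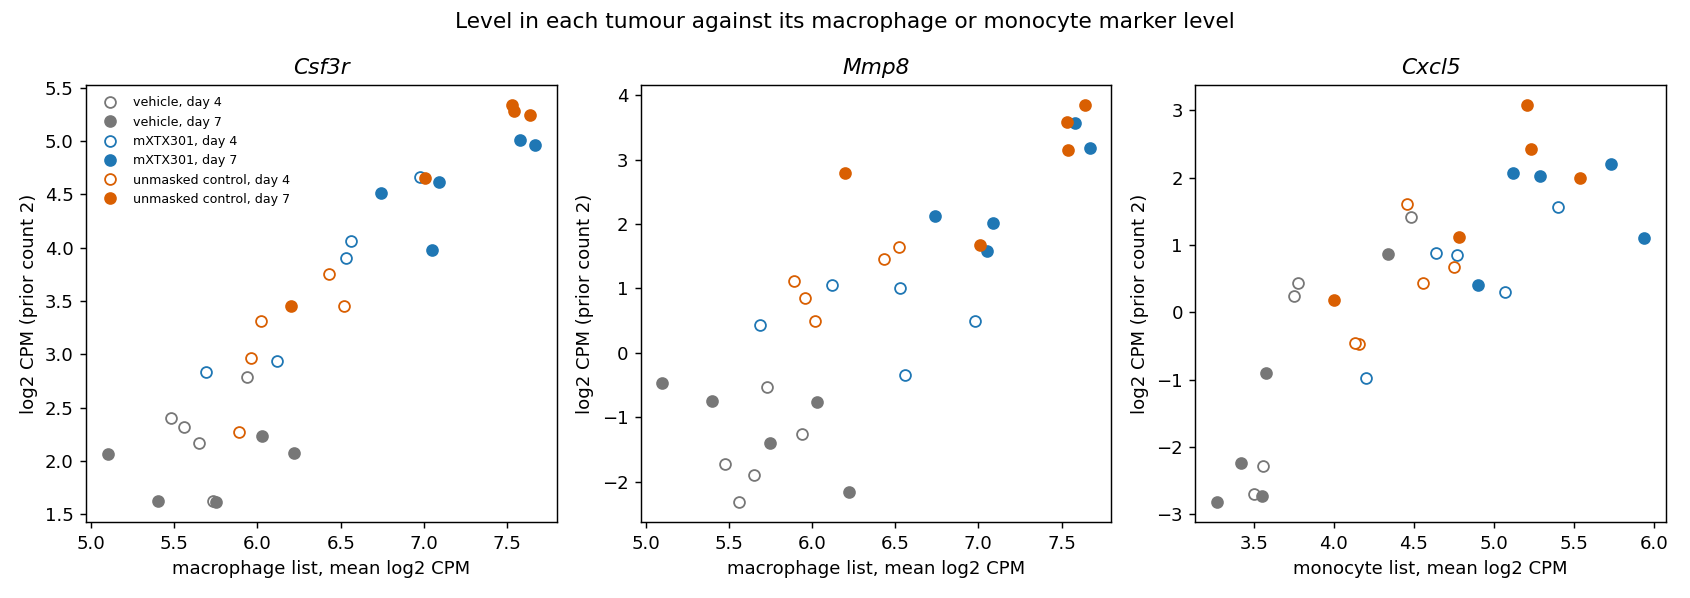
Log2 CPM (prior count 2) of Csf3r and Mmp8 against the mean log2 CPM of 10 macrophage genes and of Cxcl5 against that of 8 monocyte genes, in each of the 30 tumours. Of the 10 treated tumours of day 7, 9 lie to the right of every vehicle tumour on the macrophage axis, and the first unmasked tumour of day 7, at 6.20, lies beside a vehicle tumour at 6.22 and has the lowest Cxcl5 of its group. Csf3r also follows the list within groups (r of 0.78 after centring). Its centred r was 0.67 with the monocyte list and 0.64 with a list of 8 endothelium genes, which are not drawn for it.

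Genes of most similar pattern were sought among the 12645 genes whose mean reached 1 CPM, by Pearson r of log2 CPM over the 30 libraries. For S100a8 the closest were S100a9 (0.98), Cd24a (0.90) and Il1a (0.88), and for Cxcr2 they were S100a8 (0.82), Fabp5 (0.79) and S100a9 (0.79). After group means were subtracted, Cxcr2 was closest to S100a8 (0.77), Aqp3 (0.75) and Anxa8 (0.75). For Mmp8 the closest were Mmp12 (0.98), Grina (0.97) and Fth1 (0.95), and for Csf3r they were Dennd1c, Csf2rb2 and Cln3 (0.98 each). Cxcl5 was closest to C6 (0.90), Cxcl12 (0.90) and Saa3 (0.89). The closest gene to Cxcl2 was Cryab (0.83), that of Cd177 was Kcne3 (0.82), that of Cxcl1 was Rgs16 (0.75) and that of Retnlg was Gclm (0.74). Libraries of a group share treatment and day, so these values describe the pattern over groups as well as over tumours.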

How the data were processed

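The authors deposited whole-number counts for 24557 gene entries in 30 libraries. The submitters' processing notes list mm10 as the genome build and name STAR 2.7.10a, HTSeq 0.11.1, edgeR 3.34.0, FastQC 0.11.9, cutadapt and R 4.1.0, without saying what each did. A NucleoSpin kit for RNA and a TruSeq kit for libraries are named, per the labels' protocols. Whether counting used strand is not given in the sources used here, and none of the 10 genes overlaps another gene in GENCODE M21. A second deposited table of normalized log2 values was not used. Total counts per library ran from 48301869 to 85195518, and TMM factors from 0.916 to 1.04. Of 60 pairs of libraries within groups, 0 agreed within sampling noise.

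From the counts, 5 entries with a repeated symbol were dropped and filterByExpr kept 15482 genes. With edgeR 4.0.16 (R 4.3.3) all 30 libraries entered a robust quasi-likelihood fit with a mean for each group, with 24 residual degrees of freedom and a common coefficient of biological variation of 27.3%. Contrasts of group means gave each comparison, with adjustment over 15482 genes. Alternatives were other size factors, filters and dispersions, DESeq2 1.42.0, the replicate number as a block, a keratinocyte covariate, fits to the groups compared alone, each library left out in turn, and 2 sets of libraries left out. Genes named from a list are up to 4 called genes of smallest p and those that define the cell type; exceptions are marked as singled out. The 10 genes and the lists were chosen with earlier results of these data known.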

Additional observations from a re-analysis of the deposited data

Results flagged for a closer look

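In the vehicle group of day 7, S100a8 in the fifth tumour was 5.25 CPM while the other 4 lay between 0.524 and 0.844, a gap of 0.798 of the range on the log2 scale. Cxcr2 in the same tumour was 1.39 CPM and the others lay between 0.211 and 0.358, a gap of 0.733. That tumour had the highest keratinocyte marker level of its group, 5.67. These were 2 outlying values in 60 groups of 5 tumours examined, a test that flags about 1 in 20 groups by chance.

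The effect of the unmasked control on Csf3r differed between days by a log2 value of 2.08, tested as an interaction. Among the other genes named, Il1b differed between days by 2.29 for mXTX301 and 2.33 for the unmasked control, and Fpr2 by 1.82 and 1.86. Clec4d differed by 2.24 for mXTX301 and Acod1 by 1.24 for the unmasked control. Ngp differed by a fitted 4.98 for mXTX301, a value that depends on the prior count because vehicle libraries held at most 3 counts.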

How the results depend on the processing

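Over 65 results on the 10 genes and 1356 alternatives, 1263 kept their direction and side of the threshold, 34 lost and 29 gained a call, and 30 changed sign, all among uncalled values. Of 2350 alternatives for 113 results on other genes, 160 lost a call and 1 changed sign. The count of genes that fell was 0 in each of the 3 comparisons with a called fall under a stricter filter, which removed Cd177; it was also 0 at day 7 of the unmasked control in a fit to the groups compared, and at day 4 of mXTX301 and day 7 of the unmasked control without 12 libraries. Without 8 or 12 libraries of highest keratinocyte level (chosen after seeing the data) the count for mXTX301 from day 4 to day 7 was 3 and 2, that for the unmasked control was 0 without 12, and that of its interaction was 0 in each case. DESeq2 gave 1 gene between drugs at day 7 and 2 for that interaction. The replicate block gave 5 genes for the unmasked control from day 4 to day 7. Whether replicate numbers pair libraries was not settled, as no chance level was computed. The 75 same-number pairs had a mean r of 0.0465 (35 above 0.1), and pairs of unlike number -0.00421. For 9 of 30 libraries the closest library of another group bore the same number. Without the block the number of genes that rose was 2 and 4 for mXTX301 and 4 and 7 for the unmasked control, and with it 3, 6, 5 and 8.

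Leaving out 1 library, counts of genes ranged from 2 to 3 higher and 0 to 1 lower for mXTX301 at day 4 (0 without the third vehicle tumour), 3 to 7 higher at day 7, 3 to 5 and 7 to 9 higher for the unmasked control, 0 to 1 for vehicle between days (1 without the fifth tumour of day 7), 1 to 2 for mXTX301 between days (2 without the third tumour of day 4), 2 to 5 for the unmasked control between days, 0 to 1 for the mXTX301 interaction (1 without the third vehicle tumour of day 7) and 0 to 2 for that of the unmasked control. That last count moved without vehicle tumours 3, 4 and 5 or unmasked tumours 1 and 2 of day 7.

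Sign changes, in log2, were these. Against vehicle at day 4, leaving out 1 library gave Cxcl2 -0.51 to 0.09 for mXTX301; for the unmasked control it gave Cxcl1 -0.11 to 0.16, Cxcl2 -0.45 to 0.14 and Cxcl5 -0.01 to 1.07, with Cxcl1 -0.04 without 8 libraries and Cxcr2 -0.29 without 12. Krt16 after mXTX301 at day 7 ran from -3.71 to 0.17. For mXTX301 minus the unmasked control at day 4, leaving out 1 library gave Cxcr2 -0.80 to 0.45, Cxcl1 -0.01 to 0.21, Cxcl2 -0.21 to 0.16 and Cxcl5 -0.15 to 0.61; Cxcr2 was 0.05 with the covariate, 0.04 without 8 libraries and 0.93 without 12, where Cxcl1 was -0.04 and Cxcl5 -0.14. At day 7, leaving out 1 library gave Cxcl1 -0.08 to 0.01 and Cxcl5 -0.62 to 0.05; Cxcl1 was 0.01 with the covariate, 0.02 without 8 and 0.11 without 12, where Mmp8 was 0.01, Csf3r 0.08 and Cxcl5 0.52. The cause was not tested for these. Counts of 0 to 41 in a library limit Retnlg, and CPM under 1 limits Cd177.

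Counts over all genes that moved most between settings were these. Without 12 libraries the unmasked control went from 3465 genes to 1618 at day 4, from 6973 to 2415 at day 7 and from 4009 to 0 between days (1579 without 8). The 12 held 3 of the 5 vehicle and 3 of the 5 unmasked tumours of day 7, so fewer tumours were compared. Between drugs, 0 genes became 194 in a fit to the groups compared and 8 by DESeq2 at day 4, and 14 by DESeq2 and 5 without the third mXTX301 tumour at day 7. Vehicle between days went from 6 to between 0 and 524 over other settings and between 0 and 1075 without 1 library, and mXTX301 between days from 2242 to between 533 and 3420. The mXTX301 interaction went from 772 to between 514 and 1392 (200 to 1225 without 1 library), and that of the unmasked control from 798 to between 0 and 1669 (132 to 3025).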
